A study of Mus musculus with 143 samples.

Results

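Single microglia of the mouse cerebellum that differed in their level of P2ry12 RNA were set against each other within 1 sorted gate. The groups were chosen by P2ry12 itself: all 143 cells of the series were ranked within their own plate by P2ry12 counts per 1000000 gene counts (CPM) and divided there into 3 groups of nearly equal size. The P2ry12-high group held 47 cells (31 on plate 1 and 16 on plate 2), the P2ry12-middle group 49 (33 and 16) and the P2ry12-low group 47 (31 and 16). The comparison set the high group against the low group and so used 94 of 143 cells. Every cell came from wild type male C57BL/6N mice at postnatal day 7, and all cells carry the same labels. A pooled library name in those labels contains the word adult, while the age label and the title give day 7. Cerebella were pooled and dissociated by douncing, and myelin was removed. Live cells were then sorted one by one through a gate written CD45lowCD11b+Gpnmb+Clec7a+ and put through Smart-seq2 on plates, an assay that reads full-length transcripts without molecular identifiers. The animal of a cell is not known, so the 143 cells are 1 sample, cells are not replicates, no test was possible and no p-value is given. Plates are technical batches, and each plate's own value stands beside the value over both.

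P2ry12 encodes P2Y12, a receptor for extracellular ADP that couples to inhibitory G proteins. In surveying microglia it directs process extension towards sites of nucleotide release, and its loss is a common mark of microglia that leave the homeostatic state. Gpnmb and Clec7a, the proteins of the gate, mark microglia of developing white matter (proliferative-region-associated microglia, PAM), whose genes overlap with those of disease-associated microglia (DAM). The question was which genes separate cells with much and with little P2ry12 RNA inside a population already selected for those proteins.

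Total counts ran from 271190 to 1226521 per cell with a median of 760690. Counts were present for 12801 of 23337 gene rows. The label of the cells was borne out by their markers, since Csf1r and Fcrls were read in 47 of 47 cells of the high group and in 47 of 47 of the low group. Tmem119, another microglial marker, was read in only 14 high and 8 low cells. Markers of other cell types are given with the checks near the end.

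P2ry12 lies on the minus strand of chromosome 3 from 59216272 to 59262871 (GRCm38, GENCODE M21), inside Med12l, which runs on the plus strand from 59005825 to 59318682. Its neighbour P2ry13, also on the minus strand, spans 59207892 to 59210882. The RefSeq start windows (GRCm38.p6, 250 bases before to 50 after the start) of P2ry12 and of genes high or low beside it are shown for orientation, because these genes differed together between the high and low groups. They belong to P2ry12 (chr3:59262936-59263235, minus strand), to Cx3cr1, the gene most like P2ry12 across cells (chr9:120068247-120068546, minus strand), and to Litaf and Atp6v1a, both lower in the high group (chr16:10993072-10993371 and chr16:44139210-44139509, both minus strand). Capitals mark CACGTG, the palindromic E-box that basic helix-loop-helix factors such as the MiT family bind, and GAGGAA, a core of PU.1 sites, was searched on both strands as well.
P2ry12: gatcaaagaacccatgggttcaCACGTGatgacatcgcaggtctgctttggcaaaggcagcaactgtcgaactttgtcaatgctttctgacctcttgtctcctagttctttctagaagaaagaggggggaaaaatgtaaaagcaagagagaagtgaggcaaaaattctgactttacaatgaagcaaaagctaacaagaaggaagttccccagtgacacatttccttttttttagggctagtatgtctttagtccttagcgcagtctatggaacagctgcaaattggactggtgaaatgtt
Cx3cr1: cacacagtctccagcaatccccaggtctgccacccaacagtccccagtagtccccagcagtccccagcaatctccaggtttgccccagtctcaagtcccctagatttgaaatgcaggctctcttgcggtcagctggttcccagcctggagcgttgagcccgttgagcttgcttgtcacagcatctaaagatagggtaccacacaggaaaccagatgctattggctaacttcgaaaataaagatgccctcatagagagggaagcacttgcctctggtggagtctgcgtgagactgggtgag
Litaf: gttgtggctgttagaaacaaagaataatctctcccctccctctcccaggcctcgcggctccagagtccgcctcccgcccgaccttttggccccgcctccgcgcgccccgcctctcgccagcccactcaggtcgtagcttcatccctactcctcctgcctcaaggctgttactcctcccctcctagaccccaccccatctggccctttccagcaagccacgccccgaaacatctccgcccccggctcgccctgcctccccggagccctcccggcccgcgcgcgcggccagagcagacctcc
Atp6v1a: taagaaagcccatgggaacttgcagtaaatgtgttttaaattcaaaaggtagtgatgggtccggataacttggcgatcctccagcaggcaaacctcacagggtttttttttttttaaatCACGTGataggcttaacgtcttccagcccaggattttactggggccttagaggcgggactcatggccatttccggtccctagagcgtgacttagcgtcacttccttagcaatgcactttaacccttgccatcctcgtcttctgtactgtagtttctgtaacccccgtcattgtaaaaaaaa

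CACGTG occurred 1 time in the P2ry12 window and 1 time in the Atp6v1a window, and GAGGAA in none of the 4. The windows of Serinc3 and Lgals3, searched as well and not shown, held neither. Among genes with a single RefSeq window, CACGTG was present in 6.64% of 211 windows of genes higher in the high group, in 10.2% of 186 windows of genes lower there, in 11.9% of 3198 windows of all genes compared and in 7.12% of 22862 windows in all. For GAGGAA the shares were 29.4%, 24.2%, 26.7% and 28.4% in the same order. A match describes letters and is no binding site, and no match says only that these letters are not in this window.

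The level that ranked the cells declined steadily along the ranks and then steeply, as the plot of P2ry12 by rank shows. P2ry12 ran from 371 to 3042 CPM in the high group with a median of 701, and from 0 to 176 CPM in the low group with a median of 12.4. The pooled level, summed counts over summed gene counts, was 897 CPM in the high group (counting interval 887 to 907), 305 in the middle group and 47.6 in the low group (45.4 to 50.0). On plate 1 the pooled levels were 1066 CPM in the high and 51.9 in the low group, and on plate 2 they were 558 in the high and 38.1 in the low group, so the high groups of the plates differed more than their low groups. All 47 cells of the high group had a P2ry12 read, against 30 of 47 in the low group (63.8%, exact Clopper-Pearson 95% interval 48.5 to 77.3). The 17 cells without one, 10 on plate 1 and 7 on plate 2, were all in the low group, by construction. At the limit of the high group the last cell inside and the first outside had 527 and 520 CPM on plate 1 and 371 and 345 on plate 2. At the limit of the low group the last cell inside and the first outside had 175.8 and 176.0 CPM on plate 1 and 152 and 174 on plate 2. These values chose the groups and are not a result. Intervals here and below cover counting error only, since PCR copies of 1 molecule can be counted more than once.

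**Figure D1:**
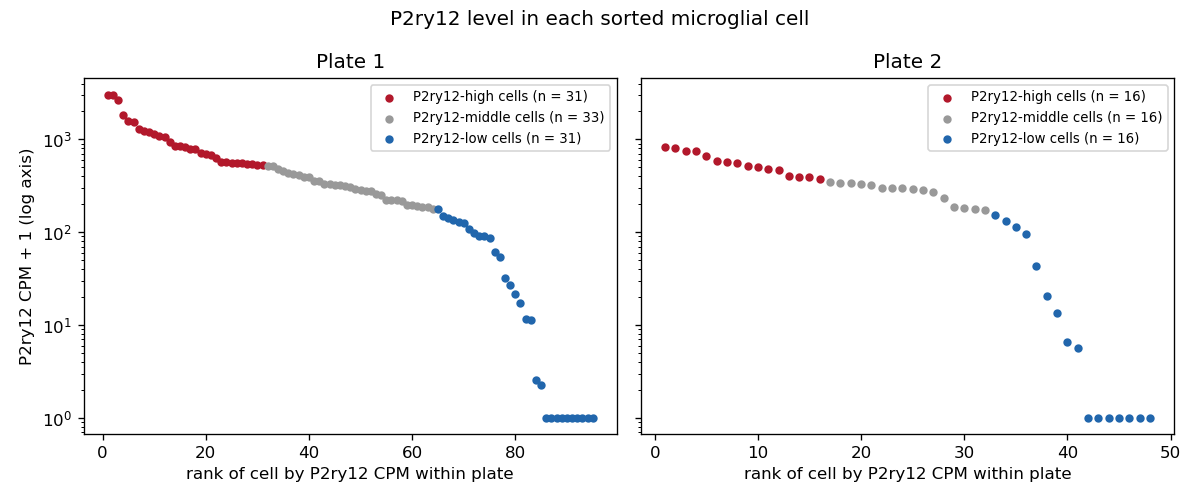
P2ry12 CPM + 1 of each cell (log axis) against its rank within plate 1 (left) and plate 2 (right), with P2ry12-high, middle and low cells in colour. No gap separates the groups at the limit of the high group, and the low group spans 0 to 176 CPM.

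Genes were compared where a read was present in at least 20% of all 143 cells and the pooled level was at least 10 CPM, which left 5447 genes besides P2ry12. Ratios are log2 of pooled CPM + 1, high over low group, and a gene is called past the limit where it exceeded 1.5-fold in the same direction on both plates. Below, the number in parentheses after a pair of levels is this ratio over both plates, and a pair of ratios gives plate 1 and then plate 2; high and low cells are those of the high and low groups. By this rule 376 genes were higher in the high group (6.9%) and 337 lower (6.19%). At 2-fold 2.28% of genes were higher and 1.78% lower. The median ratio over all genes was 0.00. The filter is on all cells together, so a gene read in 1 group alone could pass it, and genes of low level passed the limit more often than abundant ones. Of 1710 genes between 25 and 50 pooled CPM, 8.6% were higher and 8.30% lower, against 2.5% and 3.5% of 200 genes at 500 CPM or more. Among 36 spike-in RNAs of the External RNA Controls Consortium (ERCC), scaled to their own total, 1 was higher (2.78%) and 1 lower (2.78%). In counts simulated with each gene's own spread between cells, 9.07% of unchanged genes passed the limit in 1 or the other direction. A call of a single gene is therefore weak on its own. Since P2ry12 and all other genes come from the same libraries, these ratios describe what was read together in a cell.

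Genes of the homeostatic microglial program lay higher in the high group. Of 31 listed genes 27 could be compared, and 11 were higher past the limit on both plates (40.7%, against 6.9% of all genes) and 0 lower. Their median log2 ratio was 0.88 (1.1 on plate 1 and 0.60 on plate 2), against 0.00 over all genes, and 21 of 27 were higher on each plate by sign. For 23 of 27 the middle group lay between the high and the low group (85.2%, against 37.7% of all genes). With cells lacking a P2ry12 read left out before ranking, 6 of 27 were higher past the limit and the median was 0.74 (0.83 on plate 1 and 0.19 on plate 2), and Cx3cr1, Csf1r, Gpr34, Selplg, Sall1 and Il10ra were no longer past it on both plates. The list took a median of 3.23% of a cell's gene counts in the high group, 2.78% in the middle group and 2.22% in the low group.

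Several surface receptors of this program were higher. Cx3cr1, the fractalkine receptor, ran from 991 to 11020 CPM in the high group (median 4478) and from 0 to 5726 in the low group (median 2248). Its pooled level was 4602 CPM in high and 2313 in low cells, a log2 ratio of 0.99 (1.17 on plate 1, 0.63 on plate 2). The ranges overlap widely, yet 42 of 47 cells of the high group lay above the median of the low group, and 4 of 47 of the low group lay above that of the high group. Csf1r, the receptor for the survival factors CSF1 and IL-34, ran from 958 to 5703 CPM in the high group (median 2396) and from 250 to 2948 in the low group (median 1311). It was read in every cell of both groups, and its ratio was 1.01 (1.17 and 0.68 by plate). Gpr34, a lysophosphatidylserine receptor, had pooled levels of 1037 CPM in high and 500 in low cells and a ratio of 1.05. Siglech, a sialic acid-binding lectin, had 262 CPM in high and 122.04 in low cells (1.1), Selplg, the P-selectin ligand PSGL-1, 204 in high and 93.4 in low cells (1.12), and Il10ra, a subunit of the interleukin-10 receptor, 116.3 in high and 33.5 in low cells (1.77). Tmem119, a membrane protein used to tell microglia from other macrophages, had 76 CPM in high and 39.1 in low cells (0.94), with its few reading cells noted above.

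Membrane and lipid genes of the list were among those furthest apart. Slco2b1, an organic anion transporter, was read in 68.1% of the high group (52.9 to 80.9) and 25.5% of the low group (13.9 to 40.3). It ran from 0 to 2190 CPM in the high group (median 188) and from 0 to 547 in the low group (median 0), and its ratio was 2.00 (2.19 and 1.70 by plate). Lpcat2, an acyltransferase of phospholipid remodelling that also makes platelet-activating factor, had pooled levels of 315 CPM in high and 87.6 in low cells (1.84). Serinc3, a membrane protein of the serine incorporator family, ran from 33.1 to 2015 CPM in the high group (median 662) and from 0 to 1562 in the low group (median 221). In 43 of 47 cells of the high group Serinc3 was above the low group's median, and its ratio was 1.42 (1.63 and 0.92). Sall1, the transcription factor that maintains microglial identity, had 145 CPM in high and 48.7 in low cells (1.55, with 1.72 and 1.15 by plate) and was read in 66% of the high group (50.7 to 79.1) and 44.7% of the low group (30.2 to 59.9).

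**Figure D2:**
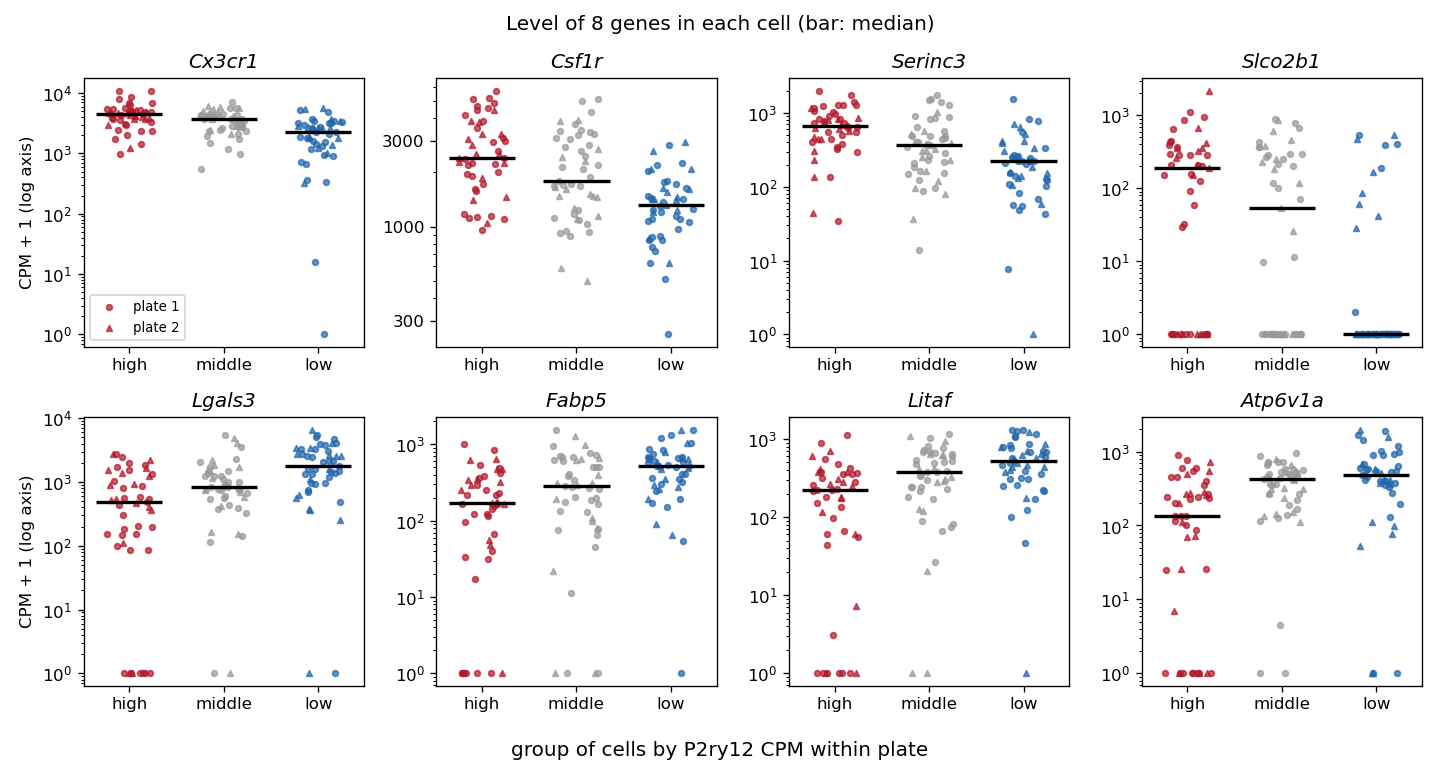
CPM + 1 (log axis) of 8 genes in every cell of the P2ry12-high, middle and low groups, circles for plate 1, triangles for plate 2, bar at the median. Cx3cr1, Csf1r, Serinc3 and Slco2b1 step down from the high to the low group, and Lgals3, Fabp5, Litaf and Atp6v1a step up, with overlapping ranges throughout.

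Some of the most abundant homeostatic genes barely differed. Cst3, a cathepsin inhibitor, had pooled levels of 3868 CPM in high and 3210 in low cells (0.27), Fcrls, an Fc receptor-like protein, 3807 in high and 3009 in low cells (0.34), and Trem2, the lipid-sensing receptor of activated microglia, 1533 in high and 1324 in low cells (0.21). All of these were higher by sign on each plate and short of the limit on both. Golm1, a Golgi membrane protein, had 1.37 on plate 1 and -0.27 on plate 2, and Crybb1, a crystallin gene, 1.89 and -1.09, so the plates went opposite ways. The one gene lower on each plate was Tgfbr1, a receptor for transforming growth factor beta (TGF-beta), with 70.2 CPM in high and 102.2 in low cells (-0.54). Olfml3, Sparc and P2ry6 were also higher on plate 1 and lower on plate 2. Of the remaining compared members, Mef2c, Rhob, Ltc4s, Bin1 and 4632428N05Rik were higher on each plate and past the limit on 1 plate at most. Slc2a5, Gpr56, Ecscr and Gpr165 were read in too few cells to be compared.

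Of the other purinergic genes, those for receptors were partly higher beside P2ry12. Of 21 listed genes 10 could be compared, with 3 higher past the limit (30%, against 6.9% of all genes) and 0 lower, and a median log2 ratio of 0.37 (0.53 and 0.59 by plate). P2ry13, the other ADP receptor of microglia, was read in 89.4% of the high group (76.9 to 96.5) and 59.6% of the low group (44.3 to 73.6). Its pooled levels were 463 CPM in high and 220 in low cells, a ratio of 1.07 (1.31 on plate 1 and 0.57 on plate 2, just inside the limit there). P2rx7, a channel opened by high ATP, had 161 CPM in high and 76.6 in low cells (1.06), and Adora3, an adenosine receptor, 18.7 in high and 6.93 in low cells (1.31). Pnp, the purine nucleoside phosphorylase, had 105.1 CPM in high and 61.2 in low cells (0.77) and was the third gene past the limit. Entpd1, the ectonucleotidase CD39 that degrades ATP and ADP, had 315 CPM in high and 220 in low cells, a ratio of 0.52 short of the limit on plate 1. The ATP channel P2rx4 (276 CPM in high and 325 in low cells), the UDP receptor P2ry6 (276 in high and 237 in low cells), adenosine kinase Adk (44.1 in high and 50.2 in low cells), Enpp1 (93.4 in high and 85.1 in low cells) and the nucleoside transporter Slc29a1 (254 in high and 226 in low cells) had opposite signs on the plates. P2ry14, another receptor of the same cluster on chromosome 3, was read in 1 cell of 143.

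Med12l, the gene around P2ry12, had 21.0 CPM in the high group and 17.1 in the low group, with ratios of 2.17 on plate 1 and -2.00 on plate 2. The annotation holds 1 pair of exons in which P2ry12 overlaps Med12l, and the labels do not state whether counting used strand. Reads of the pair cannot be told apart there, though Med12l was read in 46 of 143 cells and P2ry12 in 88.1% of all cells.

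The list of carriers of P2Y12 signalling had a median near 0. Of 24 listed genes of P2Y12 signalling and process motility 22 were compared, with 3 higher past the limit (13.6%, against 6.9% of all genes), 0 lower and a median of 0.01. The inhibitory G protein subunits Gnai2 (417 CPM in high and 389 in low cells) and Gnai3 (135.7 in high and 135.6 in low cells) had ratios of 0.10 and 0.00, and the small GTPases Rac1 (0.01), Cdc42 (-0.01) and Rap1b (0.00) lay close to 0 as well. The 3 genes past the limit were Aif1, the actin-bundling protein Iba1 (303 CPM in high and 171 in low cells, 0.82), Arrb2, the beta-arrestin that ends receptor signalling (40.1 in high and 19.9 in low cells, 0.98), and Arhgef2, an exchange factor of small GTPases (48.2 in high and 21.4 in low cells, 1.14). Kcnk13, the THIK-1 potassium channel of microglial surveillance, had 134.9 CPM in high and 92.3 in low cells (0.54, with 0.70 and 0.19 by plate). Rgs10, a regulator that speeds the shut-off of inhibitory G proteins, had 400 CPM in high and 275 in low cells (0.54).

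Transcription factors went both ways. Of 14 compared of 24 listed, 2 were higher past the limit and 2 lower (14.3% each, against 6.9% and 6.19% of all genes), with a median of 0.38 that was 0.43 on plate 1 and -0.04 on plate 2. Beside Sall1, Irf5, an interferon regulatory factor of inflammatory macrophages, was higher with 231 CPM in high and 118.9 in low cells (0.95). Irf8, a factor required for microglial development, had 532 CPM in high and 350 in low cells (0.60, short of the limit on plate 2). Mitf, the MiT family factor that drives lysosomal and DAM genes, was lower, with 12.9 CPM in high and 53.9 in low cells (-1.98, with -1.79 and -2.37 by plate). It was read in 17% of the high group (7.65 to 30.8) and 48.9% of the low group (34.1 to 63.9). Atf3, a stress-induced factor, had 25.8 CPM in high and 120.7 in low cells (-2.18). Of related factors too sparse to compare, named here after their values were seen, Tfeb was read in 2 cells of the high and 10 of the low group, and Bhlhe40 in 1 high and 11 low cells. Among 8 TGF-beta signalling genes, Ski, a repressor of SMAD proteins, was the only one past the limit (12.5%, against 6.9% of all genes higher). Ski had 80.7 CPM in high and 47.1 in low cells (0.76) and stayed past the limit in 7 of 12 alternative settings.

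Genes of the PAM and DAM program lay lower in the high group. Of 31 compared of 34 listed, 0 were higher and 6 lower past the limit (19.4%, against 6.19% of all genes), with 21 lower and 3 higher on each plate by sign. Their median log2 ratio was -0.38 (-0.43 on plate 1 and -0.29 on plate 2). Spike-in totals in place of gene totals, here and below, were used both to rank the cells and to scale the genes. The list's median was then -0.30 over both plates and -0.52 on plate 1. On plate 2 it was 0.19, below the median of 0.42 of all genes there, and 0 of the 6 genes were past the limit on both plates. With cells lacking a P2ry12 read left out, 3 of 31 were lower past it. The list took a median of 12.9% of a cell's gene counts in the high group, 14.8% in the middle group and 15.3% in the low group.

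Lgals3, the secreted lectin galectin-3, stood out among these genes. It ran from 0 to 2793 CPM in the high group (median 483) and from 0 to 6644 in the low group (median 1798). In 41 of 47 cells of the high group it lay below the low group's median, and its ratio was -1.50 (-1.72 and -1.10 by plate). Fabp5, a fatty acid-binding protein, ran from 0 to 1001 CPM in the high group (median 169) and from 0 to 1565 in the low group (median 527), with a ratio of -1.22. Fam20c, the kinase of secreted phosphoproteins such as osteopontin, was read in 36.2% of the high group (22.7 to 51.5) and 74.5% of the low group (59.7 to 86.1), with 122.3 CPM in high and 422 in low cells (-1.78). Itgax, which encodes CD11c, had 116.4 CPM in high and 240 in low cells (-1.04), and Csf1, a ligand of Csf1r, 202 in high and 418 in low cells (-1.04). The receptor and its ligand thus lay on opposite sides.

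Of the gate itself, Clec7a, the receptor Dectin-1, was the sixth gene past the limit, with 270 CPM in high and 478 in low cells (-0.82, with -0.72 and -1.02 by plate). It was read in 66% of the high group (50.7 to 79.1) and 93.6% of the low group (82.5 to 98.7), although every cell was sorted for the protein. Gpnmb had 3165 CPM in high and 4267 in low cells (-0.43), Ptprc, which encodes CD45, 192 in high and 218 in low cells (-0.18), and Itgam, which encodes CD11b, 251 in high and 157 in low cells (0.67, with 0.35 and 1.27). None of these 3 passed the limit on both plates. The secreted Spp1, osteopontin, had a median of 39093 CPM in the high group and 54101 in the low group and a pooled ratio of -0.48 (-0.53 and -0.37). Igf1, a growth factor, had 841 CPM in high and 1467 in low cells (-0.80), Cd9, a tetraspanin, 4532 in high and 6365 in low cells (-0.49), and Anxa5, a phosphatidylserine-binding protein, 1162 in high and 1614 in low cells (-0.47). Apoe, the lipid carrier, went with neither side at 32957 CPM in high and 30619 in low cells (0.11), as did the cathepsin gene Ctsb (21455 in high and 21549 in low cells, -0.01) and Tyrobp, the adaptor of Trem2 (2357 in high and 2444 in low cells, -0.05).

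**Figure D3:**
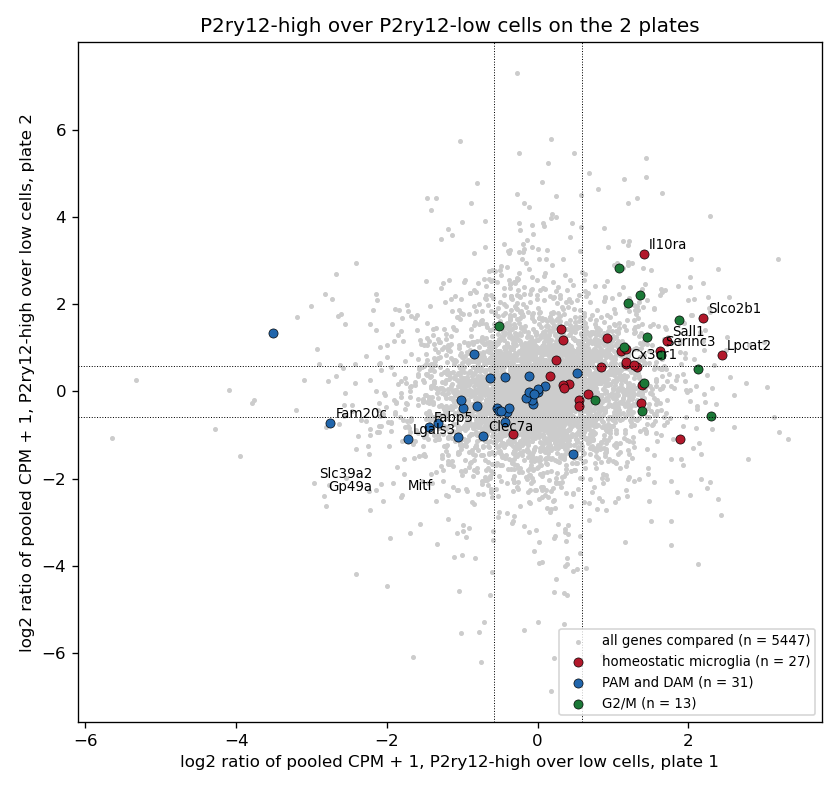
Log2 ratio of pooled CPM + 1, high over low group, on plate 1 (x) against plate 2 (y) for 5447 genes, with homeostatic, PAM and DAM, and G2/M genes in colour and dotted lines at 1.5-fold. Homeostatic and G2/M genes lie mostly at upper right and PAM and DAM genes mostly at lower left. Ranked and scaled by spike-in totals, the PAM and DAM median on plate 2 was 0.19, below the 0.42 of all genes there.

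Lysosomal genes as a list did not follow the PAM genes. Of 30, 0 were higher and 2 lower (6.67%, against 6.19% of all genes), with a median of -0.05, against 0.00 over all genes. Ranked and scaled by spike-in totals the list's median was 0.01, against 0.085 over all genes. Hydrolases were level or slightly higher in the high group, among them Ctsd (18969 CPM in high and 17160 in low cells, 0.14), Lgmn, the asparaginyl protease legumain (7374 in high and 5878 in low cells, 0.33), and Psap, the precursor of the saposins (1740 in high and 1249 in low cells, 0.48). The 2 lower genes both encode subunits of the vacuolar proton pump that acidifies lysosomes. Atp6v1a, its catalytic subunit, ran from 0 to 904 CPM in the high group (median 135.1) and from 0 to 1978 in the low group (median 475), and its ratio was -1.36 (-1.46 and -1.08). Atp6v0d2, the macrophage and osteoclast form of the d subunit, had 191 CPM in high and 471 in low cells (-1.30). All rows of this pump were then examined, a set chosen after these values were seen. Of 26 rows 17 could be compared, and 0 were higher and 4 lower past the limit (against 6.19% of all genes lower), with Atp6v0e (394 CPM in high and 618 in low cells, -0.65) and Atp6v1g1 (420 in high and 719 in low cells, -0.78) beside the 2 named. The median of the 17 was -0.45 (-0.56 and -0.29), and 11 were lower and 0 higher on each plate by sign. Atp6v1a and Atp6v1g1 were not past the limit on both plates when scaled to spike-in totals, nor Atp6v1g1 with cells lacking a P2ry12 read left out, nor Atp6v0d2 when cells were ranked separately above and below the median of gene counts per ERCC count.

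In lipid handling 0 of 19 compared genes were higher and 4 lower past the limit (21.1%, against 6.19% of all genes), with a median of -0.14. With cells lacking a P2ry12 read left out, 0 of 19 were lower past it. Besides Fabp5 these included Plin3, a lipid droplet coat protein (120 CPM in high and 238 in low cells, -0.98), and Insig1, a regulator of sterol synthesis. Insig1 rests on few cells, with 85.7% of its summed level in 5 cells. Soat1, which esterifies cholesterol for storage, had 714 CPM in high and 1197 in low cells (-0.74, with -1.05 and -0.12), whereas Abcg1, a cholesterol exporter, had 1328 in high and 834 in low cells (0.67, with 0.78 and 0.43).

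Receptors for uptake and complement genes had few members past the limit. Fcgr1, the high-affinity IgG receptor, was the only one of 23 phagocytic genes past the limit (4.35%, against 6.9% of all genes), with 210 CPM in high and 82.7 in low cells (1.34, with 1.17 and 1.94). Fcgr3, a low-affinity IgG receptor, had 1391 CPM in high and 964 in low cells (0.53). The phagocytic list had a median of 0.10, which was 0.02 over both plates and -0.20 on plate 1 when scaled to spike-in totals. All genes then had 0.085 over both plates and -0.07 on plate 1. The complement list had a median of 0.28 over 10 genes, 0 higher past the limit and 1 lower, Itgax (10%, against 6.19% of all genes). By sign 7 of the 10 were higher on each plate (70%, against 27.8% of all genes) and 3 lower (30%, against 26.8%). C1qa had 2536 CPM in high and 2075 in low cells (0.29), C1qb 4803 in high and 4697 in low cells (0.03) and C1qc 4531 in high and 3766 in low cells (0.27). In the MHC list 1 of 9 was higher, H2-DMa of the class II loading complex (39.8 CPM in high and 18.7 in low cells, 1.05), and B2m, the class I light chain, was level (1566 in high and 1513 in low cells, 0.05).

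Housekeeping lists had medians within 0.20 of 0. Oxidative phosphorylation (24 genes) had a median of -0.06, cytosolic ribosomal proteins (30) -0.05 and glycolysis (13) -0.20, with 0 genes past the limit in either direction in each. For glycolysis 6 genes were lower and 0 higher on each plate by sign. Its median was -0.40 among cells outside the cycling class, with 2 genes lower past the limit, against 11.9% of all genes. By mean log2(CPM + 1) it was -0.53 with 2 lower, against 12.04% of all genes. In smaller groups of 35 cells it was -0.33 with 1 lower, against 7.42% of all genes. Medians of all genes in these settings were -0.05, -0.15 and 0.02. Ldha, lactate dehydrogenase A, had 2199 CPM in high and 2790 in low cells (-0.34, with -0.51 and -0.05). Among 11 immediate early and dissociation genes, Btg2 was higher and Atf3 lower past the limit (9.09% each, against 6.9% and 6.19% of all genes). The plates' medians of that list differed in sign (-0.60 and 0.22). The heat shock gene Hspa8 had 1669 CPM in high and 1668 in low cells (0.00). Of 6 compared chemokine and cytokine genes 0 were higher and 2 lower (33.3%, against 6.19% of all genes), Csf1 and Il1a (27.5 CPM in high and 50.9 in low cells, -0.86), with a median of -0.29. That median moved with the setting. It was -1.25 outside the cycling class, -1.09 in groups of 35 cells and -0.67 by mean log2(CPM + 1), but -0.18 by spike-in totals and -0.24 without cells lacking a P2ry12 read. All genes had medians of 0.085 by spike-in totals and 0.03 without those cells. Of 3 interferon response genes 0 passed the limit in either direction, with a median of -0.12.

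**Figure D4:**
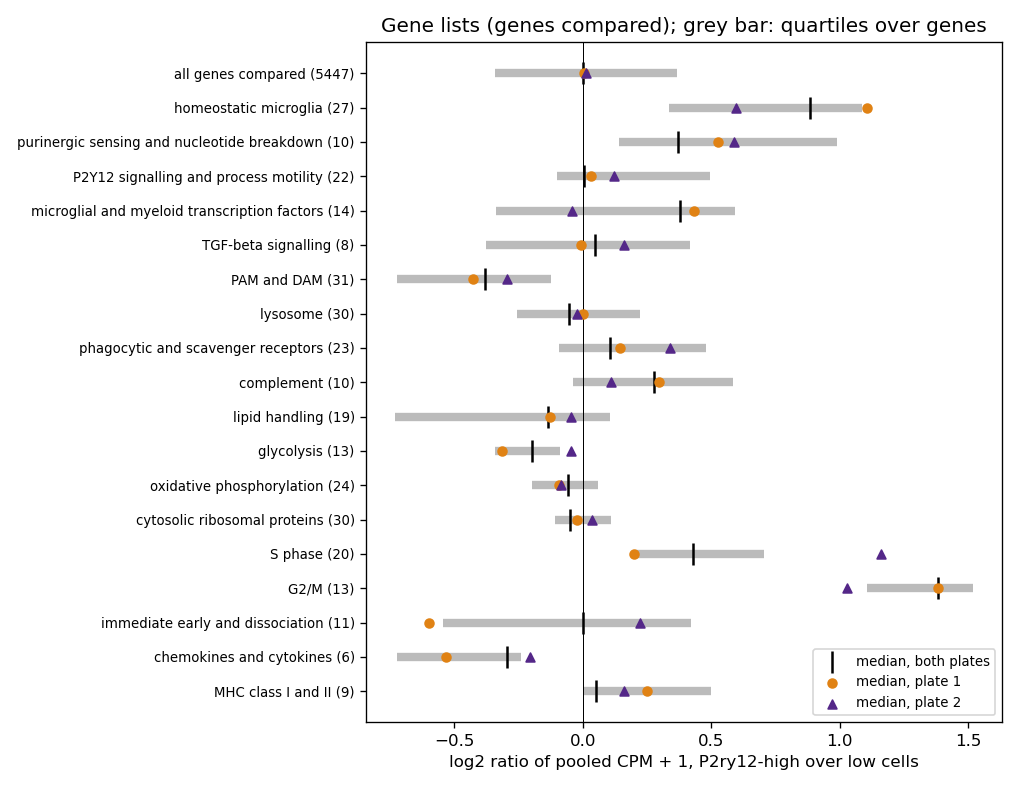
Median log2 ratio, high over low group, of each list with at least 6 genes compared, over both plates (bar), plate 1 (circle) and plate 2 (triangle), with grey bars from the lower to the upper quartile over genes. Over both plates, homeostatic (0.88) and G2/M (1.38) genes lie highest of these lists and PAM and DAM genes (-0.38) lowest. On plate 1, immediate early and dissociation (-0.60) and chemokine and cytokine genes (-0.53) lie below PAM and DAM genes (-0.43). Ranked and scaled by spike-in totals, PAM and DAM genes had a median of 0.19 on plate 2, where all genes had 0.42.

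Ranked over all genes at 25 pooled CPM or more by the smaller of the plates' ratios, the highest 12 were mostly genes of low level read in a minority of cells. Btg2, an antiproliferative immediate early gene, led with 78.2 CPM in high and 12 in low cells (2.60, with 2.28 and 4.01). Hfe, the haemochromatosis protein that governs iron uptake, had 151 CPM in high and 35.1 in low cells (2.08) and was read in 51.1% of the high group (36.1 to 65.9) and 17% of the low group (7.65 to 30.8). Slc16a6, a monocarboxylate transporter, had 134.7 CPM in high and 34.6 in low cells (1.93) and was read in 66% of high cells (50.7 to 79.1) and 23.4% of low cells (12.3 to 38). Ccpg1, a receptor for autophagy of the endoplasmic reticulum, had 146.5 CPM in high and 33.5 in low cells (2.1), and Ankrd13a, a ubiquitin-binding protein, 104.03 in high and 25.3 in low cells (2.00). The others were Ncapd3 of condensin II (2.43), Hps3 of lysosome-related organelle biogenesis (2.23), Zfp277 (2.27), the ubiquitin ligase gene Cbll1 (2.16), Wdr41 (2.07), Sbf2 (1.96) and Arsg (2.21). Arsg, a lysosomal sulfatase, had 51.1% of its summed level in 5 cells.

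The lowest 12 held genes that the lists did not cover. Slc39a2, a zinc importer of the ZIP family, had 53.3 CPM in high and 315 in low cells (-2.54, with -2.96 and -2.11) and was read in 25.5% of the high group (13.9 to 40.3) and 55.3% of the low group (40.1 to 69.8). Gp49a, an immunoglobulin-like receptor gene with a near-identical neighbour among which reads could be split, had 23.9 CPM in high and 160 in low cells (-2.69) and was read in 31.9% of high cells (19.1 to 47.1) and 66% of low cells (50.7 to 79.1). Jup, the junction protein plakoglobin, had 12.7 CPM in high and 70.9 in low cells (-2.39), Kif3a, a subunit of the kinesin-2 motor, 11 in high and 65 in low cells (-2.44), and Crebbp, the histone acetyltransferase CBP, 10 in high and 51.4 in low cells (-2.24). The rest were Mitf and Atf3, described above, Cebpg of the C/EBP family (-2.34), Rdh14, a retinol dehydrogenase (-2.37), Sh3tc1 (-2.65), Pom121 of the nuclear pore (-1.82) and Narf (-1.81).

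Likeness to P2ry12 was also measured over all cells, the middle group included, as Spearman's rank correlation of CPM within each plate, averaged over the plates. This describes 95 and 48 cells that share source and depth, and it uses the same values that ranked them. The most alike were Cx3cr1 (0.50), Serinc3 (0.49), Csf1r (0.45), Tmsb4x, the actin-sequestering thymosin beta 4 (0.43), Prune2 (0.42) and Sod1, the cytosolic superoxide dismutase (0.41). Tmsb4x had a median of 5206 CPM in the high group and 4146 in the low group, a pooled ratio of 0.38 that was steady on the plates (0.38 and 0.36). The least alike were Litaf, a membrane protein of late endosomes (-0.48), Atp6v1g1 (-0.47) and Gpr137b-ps (-0.47), a pseudogene row whose reads cannot be told from those of its parent gene. Litaf ran from 0 to 1117 CPM in the high group (median 221) and from 0 to 1317 in the low group (median 517), with a ratio of -1.23. In 42 of 47 cells of the high group it lay below the low group's median.

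Cell cycle genes, a check named with the ranking, lay higher in the high group by their medians. Of 31 G2/M genes 13 were compared, with 7 higher past the limit (53.8%, against 6.9% of all genes) and 0 lower, and a median of 1.38 (1.38 and 1.03 by plate). Top2a, the topoisomerase of chromosome condensation, had 203 CPM in high and 94 in low cells (1.1), Ccnb2, a mitotic cyclin, 154 in high and 43.1 in low cells (1.81), and Tacc3, a spindle protein, 130 in high and 49 in low cells (1.39). The others were Bub1, Cdca8, Cenpe and Tpx2, at 1.36 to 1.52. Mki67, the proliferation marker Ki-67, had 220 CPM in high and 65.4 in low cells (1.73, with 2.13 and 0.52). Of 20 compared S phase genes 3 were higher past the limit (15%, against 6.9% of all genes), Gins2, Rrm1 and Uhrf1, and 0 lower, and the median of 0.43 was 0.20 on plate 1 and 1.16 on plate 2. This median lay below that of the mitotic genes on plate 1 but above it on plate 2. Ranked and scaled by spike-in totals, 13 of 20 S phase genes were higher, against 8.70% of all genes. Their median was then 1.09 (0.78 and 2.01 by plate), against 0.085 over all genes (-0.07 and 0.42). Cells rich in RNA move up in that ranking by construction. When cells were ranked over both plates together or thinned to equal depth, 0 of 20 were higher past the limit.

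Counted by cell, 13 of 47 cells of the high group reached the G2/M limit of 8 of 31 genes at 10 CPM (27.7%, 15.6 to 42.6), against 6 of 47 of the low group (12.8%, 4.83 to 25.7). These were 10 high and 4 low cells on plate 1 but only 3 high and 2 low cells on plate 2. The G2/M ratios of plate 2 thus rest on few cells. The S limit of 6 of 24 genes was reached by 21 high and 20 low cells, and either limit, the cycling class, by 22 high cells (46.8%, 32.1 to 61.9) and 20 low cells (42.6%, 28.3 to 57.8). Cells at the S limit alone numbered 4 high and 10 low on plate 1, and 5 high and 4 low on plate 2. Cells are not replicates, so these intervals cover counting error only and do not compare the groups. Ranked by P2ry12 scaled to spike-in totals, the share in the cycling class was 23.4 percentage points higher in high than in low cells. That ranking is in effect P2ry12 CPM times gene counts per ERCC count, so cells rich in RNA move up by construction. Over all cells the median P2ry12 level was 446 CPM in 30 cells at the G2/M limit, 218 in 37 at the S limit alone and 287 in 76 at neither. Of the 94 high and low cells, 31 lay close to a limit. When the cells outside the cycling class were ranked again, the homeostatic median was 1.02 with 13 of 27 genes higher, and the PAM and DAM median was -0.37 with 7 of 31 lower, while the G2/M median was 0.34 (0.00 on each plate). More of all genes passed the limit there, 9.47% higher and 11.9% lower, against 6.9% and 6.19% in the main ranking. The cycling class is defined by G2/M and S phase genes, so few G2/M reads remain outside it by construction.

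RNA recovered, the other named check, was slightly lower in the high group. Gene counts per ERCC count had a median of 22.95 in the high group and 25.8 in the low group, with 22.3 in high and 25.8 in low cells on plate 1 but 26.8 in high and 25.7 in low cells on plate 2. Genes detected had medians of 3100 in high and 3350 in low cells, and of 3002 in high and 3248 in low cells when each cell was thinned to 259613 gene counts, a difference of similar size at equal depth. When cells were ranked separately above and below the plate's median of gene counts per ERCC count, 11 of 27 homeostatic genes were higher (median 0.84) and 6 of 31 PAM and DAM genes lower (median -0.33). Of all genes 6.87% were higher and 5.97% lower in that setting. Ranked and scaled by spike-in totals, genes higher numbered 474 and genes lower 185, a split of 71.9% higher among those called against 52.7% in CPM, and the homeostatic median was 0.77. Cells rich in RNA move up in that ranking by construction, so this split is not independent of RNA recovered.

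**Figure D5:**
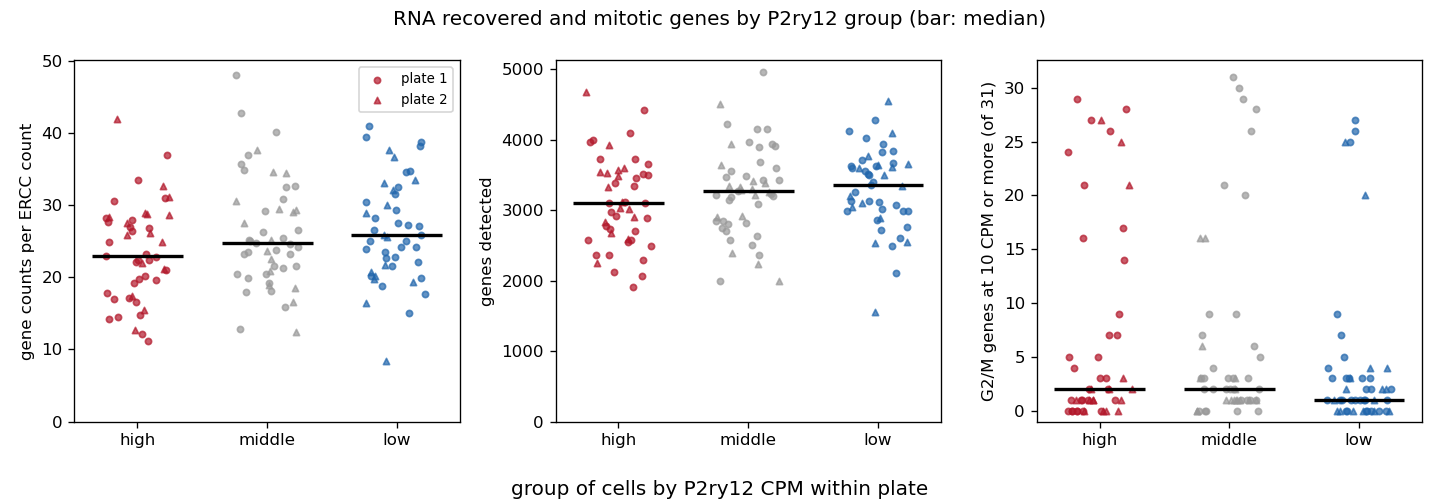
Gene counts per ERCC count, genes detected and number of the 31 G2/M genes at 10 CPM or more in each cell of the P2ry12-high, middle and low groups, circles for plate 1, triangles for plate 2, bar at the median. Medians of the first 2 measures are 22.95 and 3100 in the high group and 25.8 and 3350 in the low group.

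Markers of other cell types were sparse, and the summed levels of several lists differed between the groups. Of 15 genes of border-associated macrophages, Cd163, Lyve1, Cd209f and Clec12a were at 0 in every cell, and the list's summed level ran from 0 to 3271 CPM in the high group (median 559) and from 0 to 3592 in the low group (median 434). Mrc1, the mannose receptor of that list, had 229 CPM in high and 145 in low cells (0.66) and Stab1 327 in high and 282 in low cells (0.21). Of 10 neutrophil genes, 5 were at 0 in every cell, and the summed level had a median of 60.5 CPM in high cells (0 to 919) and 0 in low cells (0 to 1101). That level was almost all Csf3r, the receptor of granulocyte colony-stimulating factor, which was past the limit (148 CPM in high and 92.2 in low cells, 0.67). Cd79b was the only one of 10 lymphocyte genes read (124.9 CPM in high and 56.5 in low cells, 1.13, but -0.44 on plate 2), with Cd79a, Ms4a1 and Cd3e at 0. Monocyte genes summed to 72.7 pooled CPM in high and 83.5 in low cells, with Ly6c2 and Plac8 at 0, and neuronal genes to 14 in high and 13.9 in low cells. Oligodendrocyte genes summed to 94.9 pooled CPM in high and 64.7 in low cells, with Mog and Mobp at 0, and endothelial and mural genes to 10.5 in high and 8.1 in low cells. Astrocyte genes summed to 27.6 in high and 81.1 in low cells, oligodendrocyte precursor genes to 14.8 in high and 31.8 in low cells, and dendritic cell genes to 276 in high and 144 in low cells, the last mainly Siglech, which is also on the homeostatic list. The part of these reads in the differences above was not tested.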

How the data were processed

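The values the authors deposited are raw counts: integers, genes in rows, 1 column for each cell, and 92 ERCC rows. Trim Galore 0.4.3, STAR 2.5.3a, Picard, HTSeq and build mm10 are named in the submitters' processing notes; annotation and strand are not given in the sources used here. Column sums equalled the label totals in 143 of 143 cells, no pair of cells was identical, and no cell was removed. CPM was computed here per cell from gene counts, ERCC rows left out, with Python 3.11.15, numpy 2.4.6 and pandas 2.3.3. Counts were not divided by length, so levels compare cells, not genes. The ribosomal RNA row Rn45s stayed in totals and out of comparisons. The high and low groups each hold the number of a plate's cells divided by 3, rounded down. Intervals are exact Clopper-Pearson (scipy 1.17.1) or Poisson for summed counts, at 95%. No doublet caller was run on singly sorted cells. The members and the 29 gene lists were chosen with earlier results of these data known. Named genes are all compared homeostatic and purinergic members, the 12 highest and 12 lowest by the smaller plate ratio at 25 CPM or more, the 6 most and 3 least like P2ry12, of other lists the leading members and those past the limit, markers of other cells read in over 20% of cells, and Med12l; a few members of other lists were named after their values were seen, and a few genes that this rule names are not reported here. The steps were tested on simulated counts with 200 genes changed. At 2-fold 53.5% of the changed genes passed the limit, and at 4-fold 92.5%. Of the unchanged genes 9.07% and 9.24% passed it in either direction.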

Additional observations from a re-analysis of the deposited data

How the results depend on the processing

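No paired analysis was possible because the series is 1 group without replicates and no result comes from a test. The homeostatic median stayed between 0.74 and 1.11 under all alternatives run, with the lowest when cells without a P2ry12 read were left out, where its plate 2 median was 0.19 and its genes past the limit numbered 6 in place of 11. Of 72 named genes past the limit, 68 kept their sign in all 12 alternatives, and 19 stayed past the limit in all. Scaled to ERCC totals, 185 genes were lower in the high group (3.40% of those compared, against 6.19%), the cycling class differed by 23.4 percentage points, gene counts per ERCC count had a log2 ratio of 0.092, and genes detected reversed to 0.078. The cells were ranked by ERCC totals as well there, which moves cells rich in RNA up by construction. Genes lower numbered 650 (11.9%) among cells outside the cycling class and 656 (12.04%) by mean log2(CPM + 1), which also gave a PAM and DAM median of -0.60. The median of all genes by mean log2 was -0.15. The G2/M median was 1.00 with smaller groups of 35 cells each, 1.64 without cells lacking a P2ry12 read, 0.34 outside the cycling class, 0.94 by mean log2 and 1.75 with the highest cell left out; at a read in 50% of cells 0 of its genes could be compared. Genes detected had -0.19 both without cells lacking a P2ry12 read and outside the cycling class. Insig1 reversed to 0.30 without cells lacking a P2ry12 read, and Cenpe to -3.50 outside the cycling class. That class is defined by G2/M and S phase genes, so few G2/M reads remain outside it by construction. Without a filter 1138 genes were higher (8.89%) and 963 lower (7.52%), and with a read in 50% of cells 79 (3.62%) and 85 (3.89%). At 2-fold 2.28% were higher and 1.78% (97 genes) lower. Apart from what the choice or ranking of cells builds in, the cause of these shifts was not tested. With 1 pool, spread between animals cannot be seen, and low levels rest on few cells.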
